A study of Mus musculus with 16 samples.

Results

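Matrix metalloproteinases, their tissue inhibitors (TIMPs) and lysyl oxidases were followed as a group of 9 genes in mouse hearts: the proteases Mmp2, Mmp9 and Mmp14, the inhibitors Timp1, Timp2, Timp3 and Timp4, and the collagen cross-linking enzymes Lox and Loxl1. The genes were listed by name, with earlier results of these data known, and make up 9 of the 22180 genes measured, so counts among them are not those of an unselected list. Each of the 9 was read by 1 probe set that carried no other gene symbol. RNA came from the myocardium of 16 mice on the C57Bl/6J background, with 1 array per mouse and 4 mice in each of 4 groups. The groups crossed 2 genotypes, wild type (WT) and mice labelled Transgenic Clock delta 19/delta 19 (Clock), with 2 diets, standard chow (SC) and a high-fat diet (HFD). The Clock delta 19 allele makes a CLOCK protein that lacks transactivation activity and acts against the normal protein. The allele is not heart-specific, so the labelled groups do not separate an effect within heart cells from effects of the rest of the body. All 4 groups had 24 weeks on their diet, were 32 weeks old and were collected at a single time, 7 hours after lights on. A difference between genotypes therefore describes that time of day and no rhythm.

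Matrix metalloproteinases are zinc-dependent proteases that cut collagens and other matrix proteins outside the cell. MMP2 and MMP9 are the secreted gelatinases, and MMP14 is anchored in the cell membrane, where it activates the MMP2 proenzyme with the help of TIMP2. TIMPs bind and block the active proteases, and lysyl oxidases oxidise lysine side chains of collagen and elastin so that the fibres cross-link. In the heart, the balance of these enzymes is known for its part in remodelling of the matrix after injury and under overload.

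The deposited values are log2 differences of each probe set from its own median over the 16 arrays, so 0 is that median and no signal level is left. Genes therefore cannot be ranked by abundance, and the labelled tissue could not be checked against the level of heart markers. Neither the log base nor the direction is stated with the values; here they were read as base 2, with positive meaning higher expression. Array medians lay between -0.00154 and 0.00281 and array standard deviations between 0.111 and 0.159. The array of Clock SC replicate 4 resembled its own group least, with a mean correlation of 0.00508 with the other Clock SC arrays over the centred gene values. Among the 120 pairs of arrays, at most 0.00291% of values were identical, so all 16 were counted. The labels call the samples biological replicates, and with 4 arrays per group their number limits the precision. In bulk tissue, fewer cells of a type and less RNA per cell cannot be told apart.

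RefSeq's promoter table (build GRCm38.p6) held an entry for 5 of the 9 genes, Mmp14 and the 4 TIMPs. The windows of Mmp14 and Timp2 are shown because their proteins work together on MMP2 and both genes were higher in Clock hearts on HFD. Each window runs from 250 bases before the start site to 50 after it, 5′ to 3′ on the strand of the gene, with the GC-box letters GGGCGG in capitals. The Mmp14 window is chr14:54431348-54431647 on the plus strand and the Timp2 window is chr11:118355362-118355661 on the minus strand.
Mmp14: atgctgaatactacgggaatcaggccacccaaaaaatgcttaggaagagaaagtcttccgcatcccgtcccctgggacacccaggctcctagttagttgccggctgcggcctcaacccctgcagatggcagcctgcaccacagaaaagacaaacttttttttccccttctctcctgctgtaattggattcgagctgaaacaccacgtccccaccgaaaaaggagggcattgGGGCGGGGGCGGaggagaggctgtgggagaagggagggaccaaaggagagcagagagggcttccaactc
Timp2: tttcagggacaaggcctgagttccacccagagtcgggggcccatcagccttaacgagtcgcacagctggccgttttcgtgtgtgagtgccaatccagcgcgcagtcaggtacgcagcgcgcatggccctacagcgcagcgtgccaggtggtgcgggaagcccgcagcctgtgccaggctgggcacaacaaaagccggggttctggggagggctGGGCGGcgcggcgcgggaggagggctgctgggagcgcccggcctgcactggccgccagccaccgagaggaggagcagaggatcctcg
The Mmp14 window had a GC content of 56.0% and held GGGCGG 2 times in direct succession, starting 19 and 13 bases before the start site. The Timp2 window had a GC content of 68.7% and held the letters 1 time, starting 37 bases before the start site. These letters were searched on both strands and occurred in 35.7% of the 32851 promoter windows of the table, and in 4 of the 5 windows of the genes described here, all but Timp4. The CLOCK and BMAL1 E-box CACGTG, its variant CACGTT and the AP-1 letters TGANTCA were found in none of the 5 windows, on either strand. They occurred in 7.15%, 4.68% and 7.81% of all windows. Distant elements lie outside these windows, and a match or its absence describes the letters alone.

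Clock hearts had higher values than WT hearts for all 3 proteases on HFD, and for Mmp2 and Mmp9 on SC as well. Mmp14 was also the 1 gene of the 9 whose value fell on HFD, in WT hearts. Differences were fitted with limma across all genes, with 1 mean per group and a spread shared by all 16 arrays. P-values are two-sided and adjusted over the 22180 genes by Benjamini-Hochberg, and a gene is said to have risen or fallen where its adjusted p was under 0.05. In all, 7 comparisons were made: genotype on each diet, diet in each genotype, genotype and diet each averaged over the other, and their interaction.

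**Figure D1:**
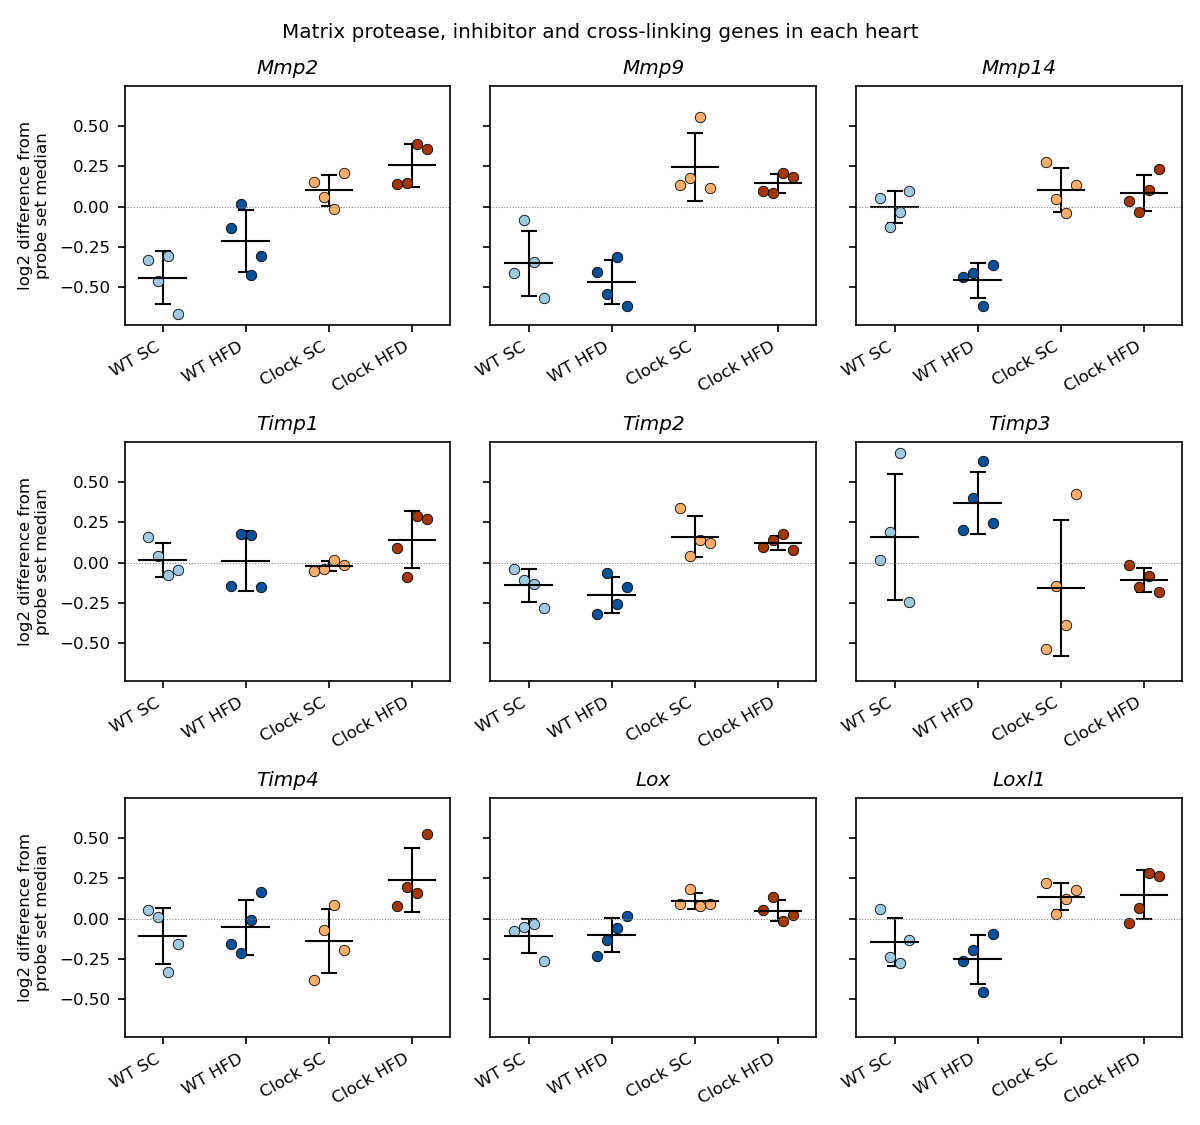
Values of the 9 genes in each of the 16 arrays, as log2 differences from the probe set's median, by group. Points are mice, horizontal lines are group means and capped bars show the SD (n = 4). The Mmp9 points of all 8 Clock mice lie above those of all 8 WT mice, and the 4 WT HFD mice stand below all others for Mmp14.

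Mmp9 encodes gelatinase B. In WT hearts on SC its 4 values were -0.41, -0.09, -0.35 and -0.57, and in Clock hearts on SC they were 0.13, 0.18, 0.56 and 0.12. On HFD the WT values were -0.41, -0.54, -0.31 and -0.62, and the Clock values were 0.10, 0.09, 0.21 and 0.18. Every Clock heart was above 0 and every WT heart below it, with no overlap on either diet. Mmp9 rose in Clock hearts by 0.60 ± 0.10 (log2, SE; 1.51-fold) on SC, with an adjusted p of 0.0146 from limma. The rise on HFD was 0.61 ± 0.10 (1.53-fold, adjusted p = 0.00465). The genotype difference on HFD minus that on SC, the interaction, was 0.01 with a 95% interval from -0.30 to 0.33. On SC, 2 of the 9 genes rose, Mmp2 and Mmp9, where 0.239% of all genes did. With only the 8 SC arrays in the fit, the adjusted p for Mmp9 on SC was 0.126.

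Neutrophils carry gelatinase B in their granules, so 12 neutrophil markers were examined beside Mmp9. None of the 12 passed the test in any of the 7 comparisons, and the median genotype difference of the list, averaged over diets, was 0.03. Few genes of any kind passed: over all genes, at most 2.44% rose and 1.44% fell in a comparison, both for genotype averaged over diets. A count of none among 12 is therefore near the share of all genes. The mean of the list ranged from -0.06 to 0.07 in WT SC, from -0.02 to 0.19 in Clock SC, from 0.00 to 0.03 in WT HFD and from -0.05 to 0.05 in Clock HFD hearts. The ranges overlap between genotypes on both diets. Over the 16 arrays Mmp9 correlated with the list mean at r = 0.18. The part of neutrophil content in the rise of Mmp9 was not tested, and on centred values it could not be seen which markers lay near background. The highest Mmp9 value of the Clock SC hearts, 0.56, was in Clock SC replicate 3, and without that array the rise on SC was 0.50 ± 0.09 (adjusted p = 0.0342).

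Mmp2 encodes gelatinase A, which connective tissue cells make constitutively. Its values were -0.33, -0.46, -0.30 and -0.67 in WT SC hearts and 0.15, 0.06, -0.02 and 0.20 in Clock SC hearts. On HFD they were -0.13, 0.02, -0.42 and -0.30 in WT hearts and 0.14, 0.15, 0.39 and 0.35 in Clock hearts. The genotypes did not overlap on either diet, and WT SC hearts were the lowest of the 4 groups. The group means ran from -0.44 in WT SC through -0.21 in WT HFD and 0.10 in Clock SC to 0.26 in Clock HFD. Neighbours in that order overlapped between WT SC and WT HFD, between WT HFD and Clock SC, and between Clock SC and Clock HFD. Mmp2 rose in Clock hearts by 0.54 ± 0.10 on SC (1.46-fold, adjusted p = 0.0174) and by 0.47 ± 0.10 on HFD (1.38-fold, adjusted p = 0.0182). The call on SC was lost without WT SC replicate 2 (adjusted p = 0.0603) or Clock SC replicate 1 (0.0653), and was 0.0504 with replicate number as a block. The call on HFD was lost without any 1 of WT HFD replicates 3 and 4 (0.0627 and 0.0556) and Clock HFD replicates 3 and 4 (0.0679 and 0.0621).

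Mmp14, the membrane-type protease MT1-MMP, showed another pattern. Its values were 0.05, -0.13, -0.04 and 0.10 in WT SC hearts and 0.28, 0.05, -0.04 and 0.13 in Clock SC hearts, which overlapped. On HFD they were -0.44, -0.41, -0.61 and -0.36 in WT hearts and 0.04, -0.04, 0.10 and 0.23 in Clock hearts. The 4 WT HFD hearts lay below the other 12, and those 12 overlapped with each other. On SC the genotype difference of Mmp14 was 0.11 ± 0.08 (adjusted p = 0.731). On HFD Mmp14 rose in Clock hearts by 0.54 ± 0.08 (1.45-fold, adjusted p = 0.00117).

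Between diets Mmp14 fell in WT hearts, by 0.45 on HFD (SE 0.08, adjusted p = 0.0167). Of the endothelial markers, 12 of 12 were below 0 in the same comparison, and 1 passed, Cldn5. Of the fibroblast markers, 12 of 12 were above 0 (median 0.13), and none passed. Over all genes 48.8% were above 0 there. The part of either cell type was not tested. Mmp14 was 1 of the 9 genes to fall there, where 0.167% of all genes did. It was also the only gene of the 9 with lower values on HFD without overlap, which 2.5% of all genes showed. That call was lost without WT SC replicate 1 (adjusted p = 0.0572) or WT SC replicate 4 (0.0668). In Clock hearts the diet difference of Mmp14 was -0.02, with a 95% interval from -0.18 to 0.14. The interaction was 0.43 ± 0.11 and ranked 23 of 22180 genes by p, with an adjusted p of 0.761. No gene passed the interaction test with limma (0% of all genes, 1122 at an unadjusted p under 0.05), so the diet effects of the genotypes on Mmp14 were not shown to differ.

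**Figure D2:**
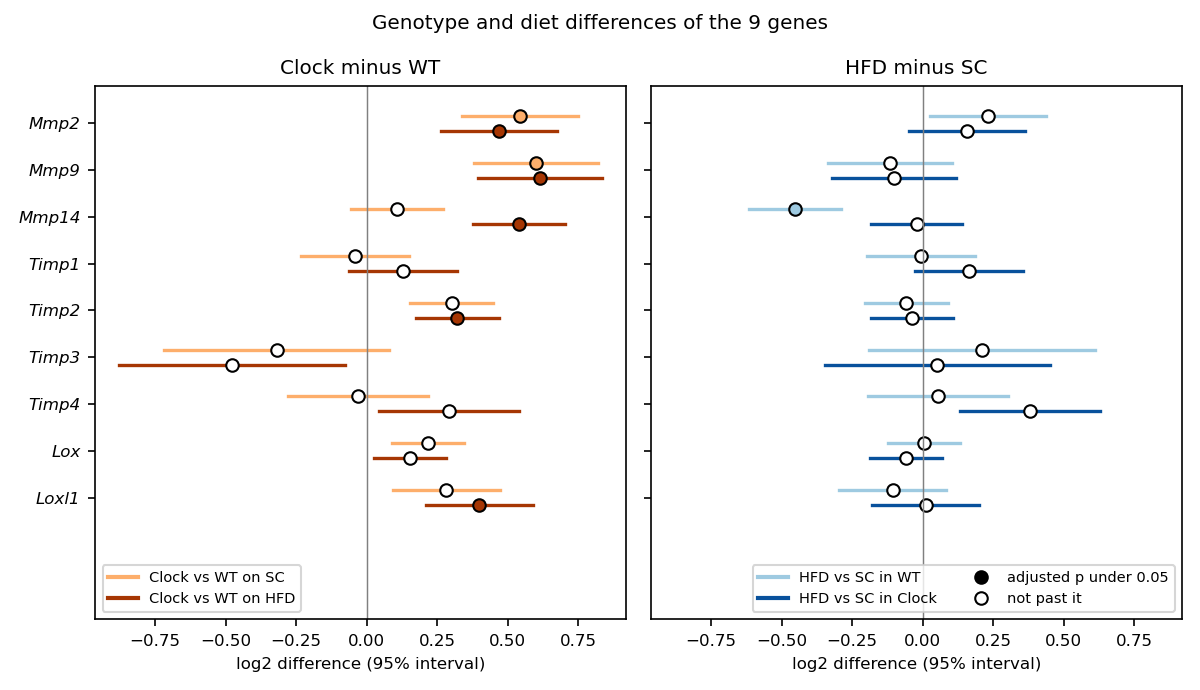
Log2 differences of the 9 genes with 95% intervals: Clock minus WT on each diet (left) and HFD minus SC in each genotype (right); filled points have an adjusted p under 0.05. Mmp2 and Mmp9 are filled on both diets on the left, and Mmp14 in WT hearts is the one filled point on the right.

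On HFD, 5 of the 9 genes rose in Clock hearts: Mmp2, Mmp9, Mmp14, Timp2 and Loxl1. Over all genes 1.13% rose in that comparison. The same 5 had no overlap between genotypes, as did 5.09% of all genes in that direction. The median difference of the 9 was 0.32 on HFD and 0.22 on SC, beside medians of 0.000261 and -0.000268 for all genes. Without single arrays the number of genes called on HFD ranged from 2 to 5, and Mmp9 and Mmp14 were called in every such fit.

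Of the inhibitors, Timp2 was the only one to pass the genotype test, on HFD and averaged over diets. TIMP2 blocks metalloproteinases and also tethers the MMP2 proenzyme to MMP14. Its values were -0.04, -0.11, -0.13 and -0.28 in WT SC hearts, 0.34, 0.04, 0.14 and 0.12 in Clock SC hearts, -0.32, -0.07, -0.26 and -0.15 in WT HFD hearts and 0.10, 0.14, 0.18 and 0.08 in Clock HFD hearts. All 8 Clock hearts were above all 8 WT hearts, which held for 2 of the 9 genes, Timp2 and Mmp9, and for 0.419% of all genes. Timp2 rose in Clock hearts on HFD by 0.32 ± 0.07 (1.25-fold, adjusted p = 0.0219). On SC the difference was of like size, 0.30 ± 0.07, but did not pass (adjusted p = 0.0695). The interaction was 0.02, with a 95% interval from -0.19 to 0.23. Leaving out WT HFD replicate 1 or 3, or replicate 2 or 3 of Clock HFD, ended the call on HFD, with adjusted p-values from 0.0677 to 0.0742.

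Timp3, the inhibitor that binds to the matrix itself, pointed the other way. Its values were 0.01, 0.19, 0.68 and -0.24 in WT SC hearts and -0.53, -0.14, -0.39 and 0.42 in Clock SC hearts, a wide spread with overlap. On HFD they were 0.20, 0.40, 0.63 and 0.24 in WT hearts and -0.01, -0.15, -0.09 and -0.18 in Clock hearts. On HFD every Clock heart was below every WT heart, as for 3.8% of all genes in that direction. The differences were -0.32 ± 0.19 on SC (adjusted p = 0.645) and -0.48 ± 0.19 on HFD (adjusted p = 0.258), and neither passed. Timp3 varied more within groups than the other 8 genes, with a residual SD of 0.305 against a median of 0.0980 over all genes. In a fit on the 8 HFD arrays alone, which does not share the SC spread, the adjusted p on HFD was 0.0243. Averaged over diets the difference was -0.40 ± 0.13 (adjusted p = 0.120), and without Clock SC replicate 4 it was -0.50 (adjusted p = 0.0179).

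Timp4, the inhibitor known for its expression in heart muscle, had values of 0.05, 0.01, -0.33 and -0.16 in WT SC and -0.38, -0.07, 0.09 and -0.20 in Clock SC hearts. On HFD they were -0.16, -0.21, -0.01 and 0.17 in WT and 0.08, 0.19, 0.16 and 0.53 in Clock hearts. Clock HFD hearts had the highest mean, 0.24 ± 0.20 (SD, n = 4), and overlapped with the others. Its diet difference in Clock hearts was 0.38 ± 0.12 (adjusted p = 0.312), and its genotype difference on HFD was 0.29 ± 0.12 (adjusted p = 0.267).

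Timp1, an inducible inhibitor, ranged from -0.15 to 0.29 over the 16 hearts. Its 4 group means were 0.02 in WT SC, 0.01 in WT HFD, -0.02 in Clock SC and 0.14 in Clock HFD hearts, and all groups overlapped. The genotype differences were -0.04 on SC, with a 95% interval from -0.23 to 0.15, and 0.13 on HFD, with an interval from -0.06 to 0.32.

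In the RefSeq gene table Timp1, Timp3 and Timp4 overlap the synapsin genes Syn1, Syn3 and Syn2, and Timp2 overlaps Cep295nl. Syn3 had a genotype difference of -0.15 ± 0.06 averaged over diets (adjusted p = 0.181) and correlated with Timp3 at r = 0.41 over the 16 arrays. Cep295nl had an averaged difference of -0.02 ± 0.05 (adjusted p = 0.900), against 0.31 for Timp2.

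Both cross-linking enzymes were higher in Clock hearts when diets were averaged. Loxl1, which acts mainly on elastic fibres, had values of 0.06, -0.24, -0.28 and -0.13 in WT SC hearts and 0.22, 0.03, 0.12 and 0.18 in Clock SC hearts. On HFD they were -0.26, -0.20, -0.46 and -0.10 in WT and -0.03, 0.06, 0.28 and 0.26 in Clock hearts. The genotypes overlapped on SC through WT SC replicate 1 and did not overlap on HFD. Loxl1 rose in Clock hearts on HFD by 0.40 ± 0.09 (1.32-fold, adjusted p = 0.0288), and the difference on SC was 0.28 ± 0.09 (adjusted p = 0.236). The call on HFD was lost without any 1 of 6 of the 8 HFD arrays, with adjusted p-values from 0.0513 to 0.0998. The 6 were all but WT HFD replicate 4 and Clock HFD replicate 1.

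Lox, the main cross-linking enzyme of fibrillar collagen, had values of -0.08, -0.05, -0.04 and -0.27 in WT SC hearts and 0.09, 0.18, 0.07 and 0.09 in Clock SC hearts. On HFD they were -0.23, -0.14, -0.06 and 0.01 in WT and 0.05, 0.14, -0.01 and 0.02 in Clock hearts. The genotypes did not overlap on SC, where 4 of the 9 genes were higher without overlap, Lox, Mmp2, Mmp9 and Timp2, and 2.58% of all genes were. The differences of Lox, 0.22 ± 0.06 on SC (adjusted p = 0.162) and 0.15 ± 0.06 on HFD (adjusted p = 0.258), did not pass on either diet. Averaged over diets Lox rose by 0.18 ± 0.04 (adjusted p = 0.0215), a call lost without Clock HFD replicate 2 (0.0511).

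Averaged over the diets, 6 of the 9 genes rose in Clock hearts, where 2.44% of all genes rose, and none of the 9 fell. Mmp9 rose by 0.61 ± 0.07 (adjusted p = 0.000163), Mmp2 by 0.50 ± 0.07 (0.000425) and Mmp14 by 0.32 ± 0.05 (0.00232). Timp2 rose by 0.31 ± 0.05 (adjusted p = 0.00133), Loxl1 by 0.34 ± 0.06 (0.00508) and Lox by 0.18. All 3 proteases and both cross-linkers thus passed, and 1 of the 4 inhibitors. For Mmp14 this average covers differences of 0.11 on SC and 0.54 on HFD, which were not shown to differ (interaction, adjusted p = 0.761). The calls of Mmp2, Mmp9, Mmp14, Timp2 and Loxl1 were kept without any single array.

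Between diets, Mmp14 was the gene of the 9 that passed. Averaged over genotypes, Mmp14 fell on HFD by 0.24 (SE 0.05, adjusted p = 0.0370), as 0.726% of all genes did. That average covers diet differences of -0.45 in WT and -0.02 in Clock hearts, which were not shown to differ (limma interaction, adjusted p = 0.761). Over the 16 fits that left out 1 array, adjusted p ranged from 0.0293 to 0.0818, and the call was lost in 12. Mmp2 had a diet difference of 0.19 ± 0.07 (adjusted p = 0.197) and Timp4 one of 0.22 ± 0.08 (0.243). In Clock hearts none of the 9 passed the diet test with limma, 1 had an unadjusted p under 0.05, Timp4, and 0.0902% of all genes passed in either direction. In WT hearts the 8 genes other than Mmp14 had adjusted p-values from 0.391 to 0.992.

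The 9 genes varied more than most. Over the 16 arrays the SD was 0.351 for Timp3, 0.350 for Mmp9, 0.311 for Mmp2 and 0.257 for Mmp14, beside a median of 0.104 over all genes. An SD above that of Mmp14 was seen in 1.83% of genes, and above that of Mmp9 in 0.676%. Lox varied least, with an SD of 0.124, which 32.6% of genes exceeded.

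Correlations between the genes across the 16 arrays describe both the group differences and the spread within groups, since arrays of a group share genotype and diet. Timp2 and Loxl1 had the highest, r = 0.83, followed by Mmp14 and Loxl1 at 0.81. With each group's mean taken off, Mmp14 and Loxl1 still varied together (r = 0.73), while Mmp9 and Timp2 went from 0.78 to -0.06. Mmp9 and Mmp14 correlated at 0.55 over the arrays and at -0.65 within groups. Timp3 correlated below 0 with 7 of the other 8 genes, down to -0.68 with Loxl1, and at 0.00 with Timp1.

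**Figure D3:**
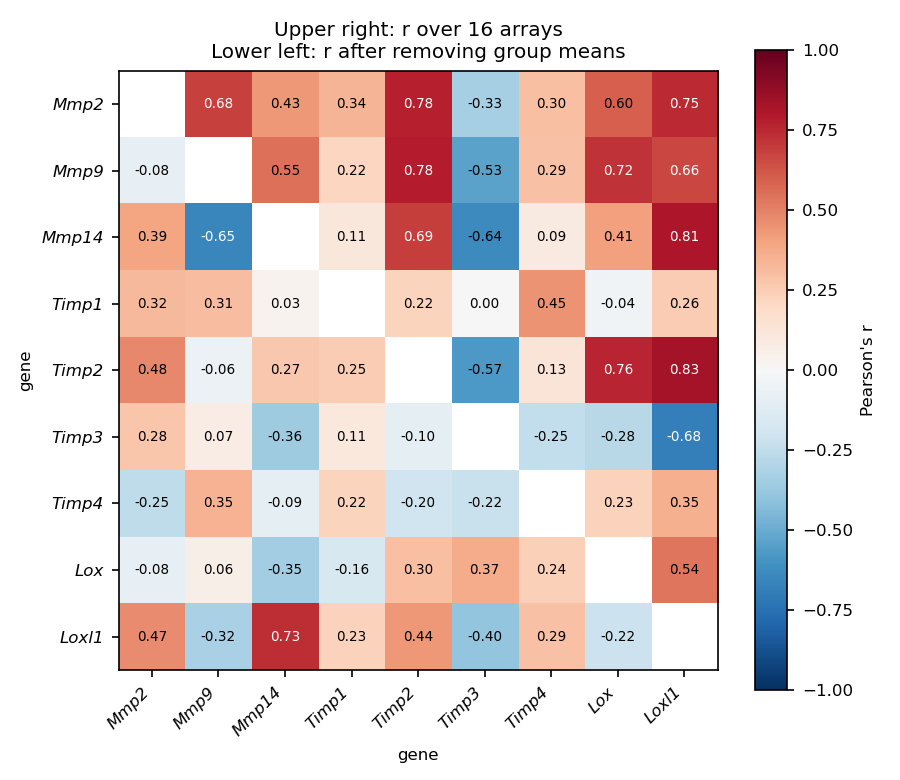
Pearson's r between each pair of the 9 genes over the 16 arrays (upper right) and after group means were removed (lower left), with the r printed in each square. Timp3 is negative in the upper right against all but Timp1 (0.00), and Mmp9 with Mmp14 changes from 0.55 to -0.65.

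The genes with the most similar pattern were taken as the 3 with the highest r over the 16 arrays among 19392 genes, leaving out predicted ones. The highest of so many r values on 16 arrays is large for any gene, also within groups. A link between the genes named was not tested. For Mmp14 these were the clock genes Arntl (0.89) and Clock (0.87), with Rnf114 (0.87) between them in rank. Arntl encodes BMAL1, the partner of CLOCK. Its group means were -0.45 ± 0.78 in WT SC, -1.88 ± 0.24 in WT HFD, 0.27 ± 0.15 in Clock SC and 0.04 ± 0.06 in Clock HFD hearts (SD, n = 4). As with Mmp14, WT HFD hearts were the lowest. Within groups, r between Mmp14 and Arntl was 0.37, and the 3 genes most like Mmp14 there were Myo15, S100a10 and Irs1 (0.82 to 0.83).

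For Loxl1 the most similar gene was Col1a1, a chain of type I collagen, at 0.93 over the arrays and 0.91 within groups, followed by Serping1 (0.88) and Rnf114 (0.87). For Timp3 it was Rhobtb1, at 0.91 and 0.90, with Srp72 and Clk4 next at 0.87 each. Within groups Timp3 was also close to Ell2 (0.91) and the clock repressor Per1 (0.90), whose r with Timp3 over the 16 arrays was 0.81. With Arntl, r of Timp3 was -0.78 over the arrays and -0.74 within groups, and with Clock it was -0.75 and -0.60. Per1 had within-group SDs from 0.22 to 0.65, and its genotype difference averaged over diets was -0.36 ± 0.19 (adjusted p = 0.360).

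For Mmp2 the most similar genes were Lrp1, an endocytic receptor known to clear matrix proteases, at 0.91, Prkg1 at 0.90 and Matn2 at 0.88. Timp2 was most similar to Tspan12 (0.92), Arhgap44 and Wfs1 (0.90 each), and Mmp9 to Tmem171 (0.90), Il13ra1 (0.89) and Cox7a1 (0.88). Lox was closest to Ank3, Gnaq and Scara3 (0.86 to 0.87) and Timp4 to Map11 (0.87), Hlcs (0.83) and Pla2g12a (0.82). Timp1 had the lowest top values, with Olfr1015, Fam124a and Olfr448 at 0.78 each. After group means were removed, the top r was 0.89 for Mmp2 (B3gnt5), 0.93 for Mmp9 (Olfr61), 0.87 for Timp2 (Gpr137c), 0.88 for Lox (Slc46a3), 0.85 for Timp4 (Map11) and 0.84 for Timp1 (Rufy2).

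**Figure D4:**
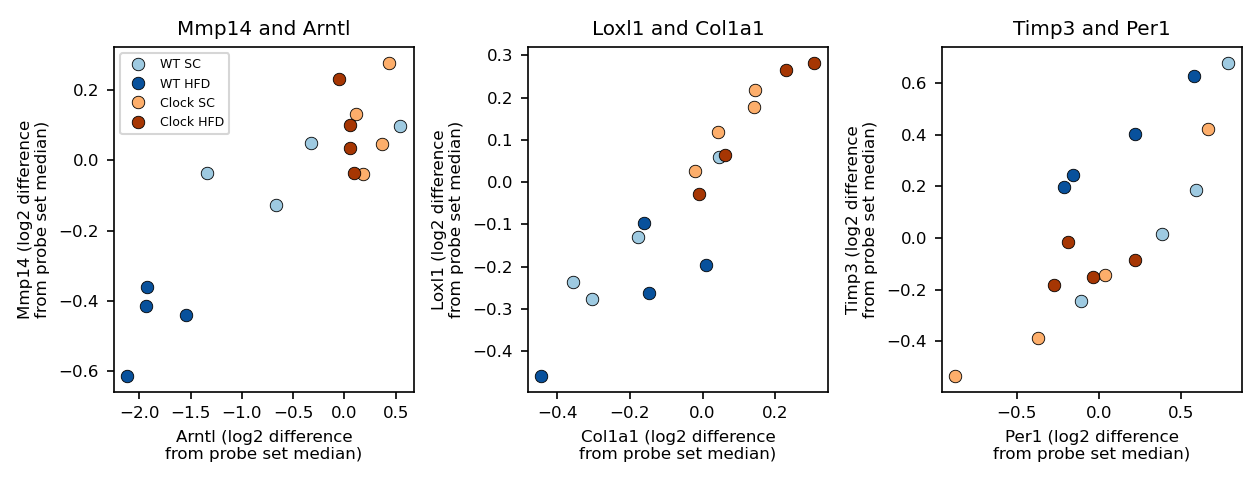
Values in the 16 arrays, coloured by group, of Mmp14 against Arntl, Loxl1 against Col1a1 and Timp3 against Per1, all as log2 differences from the probe set's median. The WT HFD mice form a separate low cluster for Mmp14 and Arntl, while Loxl1 and Col1a1 rise together within groups (r = 0.91) and over all arrays (0.93).

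Markers of cell types moved with several of these genes. Of 12 fibroblast markers, 4 rose in Clock hearts averaged over diets (Ddr2 by 0.35, Col1a1 by 0.30, Gsn by 0.28 and Lum by 0.27), all 12 were above 0 and the median was 0.16. Over all genes 2.44% rose in that comparison and 49% were above 0. The mean of the list ranged from -0.24 to -0.04 in WT SC, from -0.18 to 0.13 in WT HFD, from -0.01 to 0.10 in Clock SC and from -0.08 to 0.21 in Clock HFD hearts. No fibroblast marker passed on SC or HFD alone. Between diets in WT hearts all 12 were above 0 on HFD, with a median of 0.13, and none passed. Over the 16 arrays the list mean correlated with Mmp2 at 0.88 and with Loxl1 at 0.75, and within groups at 0.79 and 0.78. For Timp2 these values were 0.69 and 0.57, for Mmp14 0.33 and 0.51, and for Mmp9 0.46 and -0.21. Col1a1 is in that list. The part of fibroblast content in the rise of these genes was not tested.

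Of 12 endothelial markers, 7 rose in Clock hearts averaged over diets, among them the tight junction gene Cldn5 by 0.74 and Robo4 by 0.36, and the median was 0.23. On HFD 4 of the 12 rose, with Cldn5 at 1.21 and a list median of 0.25, and on SC none did, with 11 of the 12 above 0. Among all genes 2.44% rose averaged over diets, 1.13% on HFD and 0.239% on SC. The mean of the list was lowest in WT HFD hearts, from -0.26 to -0.20, and ranged from -0.10 to 0.07 in WT SC, from 0.03 to 0.17 in Clock SC and from -0.02 to 0.17 in Clock HFD hearts. WT HFD hearts thus stood below the other groups for this list as they did for Mmp14. Between diets, none of the 12 was above 0 in WT hearts, with a median of -0.12, and 1 fell there, Cldn5 by 0.81. Averaged over genotypes 3 of the 12 fell on HFD, Kdr by 0.24, Emcn by 0.21 and Egfl7 by 0.20. The shares of all genes that fell on HFD were 0.726% averaged over genotypes and 0.167% in WT hearts. Over the 16 arrays the list mean correlated with Mmp14 at 0.82, Mmp9 at 0.77, Loxl1 at 0.76, Timp2 at 0.72, Lox at 0.67 and Mmp2 at 0.60. Within groups these values were 0.05, -0.06, 0.16, -0.18, 0.19 and 0.35 in the same order. The part of endothelial content in the genotype and diet differences of these genes was not tested. Cardiomyocyte markers had 1 of 10 that rose averaged over diets (Ryr2 by 0.17). None of 9 smooth muscle and pericyte, 10 macrophage, 7 lymphocyte, 6 adipocyte, 6 mesothelial or epicardial and 1 blood cell markers passed a genotype test. Because values are centred on each probe set, it could not be seen which markers lay near background.

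Other matrix proteases were examined beside the 9 genes. For scale, 2.44% of all genes rose in Clock hearts averaged over diets, 1.13% on HFD and 0.239% on SC. Of 17 other metalloproteinases measured, 1 rose in Clock hearts averaged over diets, stromelysin-1 (Mmp3) by 0.36 ± 0.08 (adjusted p = 0.0155), and the median was 0.01. None of the 17 passed on SC or HFD alone. Of 18 ADAM and ADAMTS proteases, which shed membrane proteins or cut proteoglycans, 4 rose averaged over diets: Adam19 by 0.40 ± 0.05 (adjusted p = 0.000388), Adam17 by 0.19, Adam15 by 0.14 and Adam9 by 0.14. On HFD alone 3 of the 18 rose, Adamts9 by 0.70, Adam19 by 0.46 and Adam15 by 0.21. Adamts9 was 0.08 ± 0.17 on SC (adjusted p = 0.941). Of 13 activators and other inhibitors, 2 rose averaged over diets, the proprotein convertase Furin by 0.18 and urokinase (Plau) by 0.17.

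Of 11 other lysyl oxidases and their partners, 4 rose averaged over diets: fibronectin (Fn1) by 0.45, fibulin-5 (Fbln5) by 0.34, periostin (Postn) by 0.28 and Loxl3 by 0.19. Fn1 also rose on each diet, by 0.43 on SC and 0.48 on HFD. Of 23 substrates, 6 rose averaged over diets, the 4 of largest size being Col4a1 by 0.46, Lama5 by 0.42, Nid1 by 0.34 and Col1a1 by 0.30, and 21 of the 23 were above 0 (median 0.18). Col4a1, Lama5 and Nid1 encode basement membrane proteins. On HFD 4 of the 23 rose and on SC 1 did, Nid1 by 0.39. Of 13 collagen synthesis enzymes, 1 rose averaged over diets, the collagen chaperone Serpinh1 by 0.28. No gene of these lists fell between genotypes, where 1.44% of all genes fell averaged over diets. The shares of all genes that rose were 2.44% averaged over diets, 1.13% on HFD and 0.239% on SC.

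Regulators known upstream of these genes were examined last. Of 17 measured, 1 rose in Clock hearts averaged over diets, Tgfb3 by 0.22, where 2.44% of all genes rose. The growth factor Tgfb1 fell on HFD in both genotypes, by 0.30 in WT hearts (SE 0.05, adjusted p = 0.0156) and by 0.36 in Clock hearts (SE 0.05, adjusted p = 0.00666). Its averaged genotype difference was -0.05 ± 0.03 (adjusted p = 0.531). Averaged over genotypes Il1b fell on HFD by 0.57 and Tnf by 0.33, and in the other lists Adam9 rose by 0.14, Postn by 0.34 and Lama2 by 0.17 while Crtap fell by 0.27. In that comparison 0.812% of all genes rose and 0.726% fell.

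**Figure D5:**
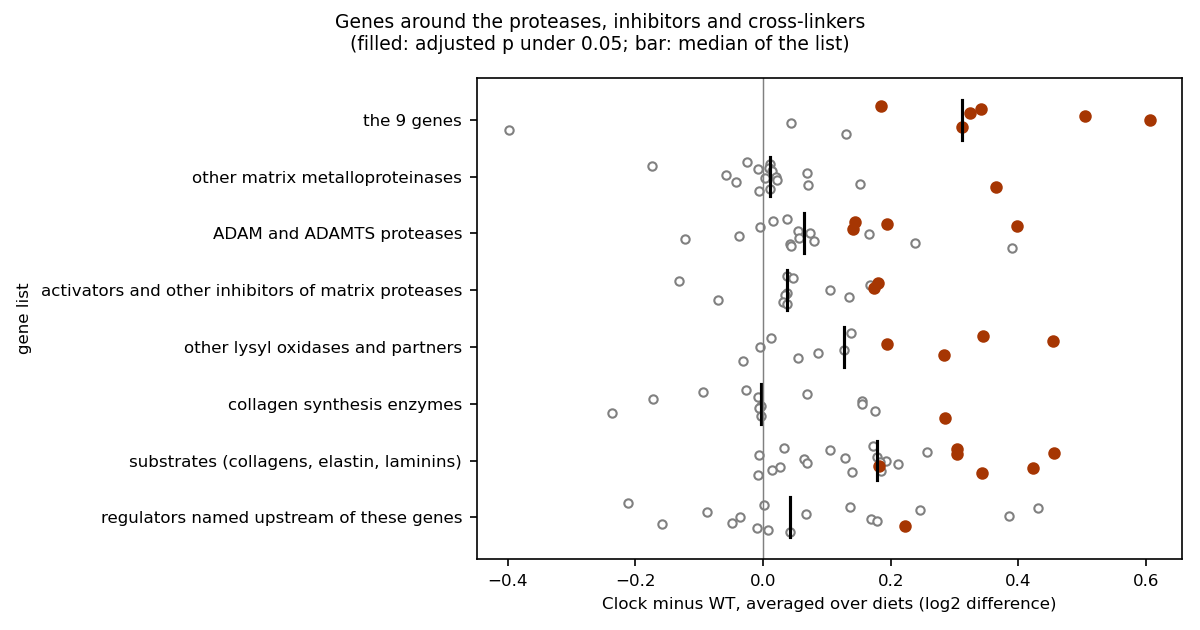
Clock minus WT log2 differences averaged over diets, 1 point per gene, for the 9 genes and 7 lists of related genes; filled points have an adjusted p under 0.05 and bars are list medians. The median of the 9 genes is 0.31, that of the substrates 0.18 and that of the other metalloproteinases 0.01.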

How the data were processed

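RNA (500 ng per mouse) from 16 hearts was hybridised to 1 Affymetrix array each, per the labels' protocols. The authors' deposited table holds log2 values of 34351 probe sets, each centred on its median over the 16 arrays (largest remaining median 5e-07, checked on the values). For background correction, summarisation, normalization and software, the sources used here give no method. Symbols came from GEO's platform annotation: 23521 probe sets had 1 symbol, 1814 several and 9016 none. Probe sets with 1 symbol were averaged per gene, giving 22180 genes, with no filter on low values.

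Genes were tested with lmFit and eBayes of limma 3.58.1 (R 4.3.3), fitting a mean for each group (residual degrees of freedom 12, prior 4.156), with Benjamini-Hochberg adjustment at 0.05 and no minimum fold. The script was tested on simulated data. Groups and replicate numbers came from sample titles. The 9 genes, the gene lists and the cell type markers were chosen with earlier results of these data known. All 9 genes are named in each comparison, at most 4 called genes per list, and the 3 genes of highest correlation with each of the 9. Alternatives were eBayes with a variance trend and robust setting, array weights, repeated quantile normalization, the compared arrays alone, a replicate block, probe sets of several symbols, leaving out WT SC replicates 2 and 4 (arrays that earlier results of these data had singled out) and leaving out each array. Promoter sequences are RefSeq's. P-values were not computed for correlations. Figures were drawn with matplotlib 3.10.9.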

Additional observations from a re-analysis of the deposited data

Results flagged for a closer look

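Each gene was checked in each group of 4 arrays for a single array far from the rest, 36 sets in all, of which chance alone picks out about 1 in 20. Of these, 2 had such an array, both in Clock SC hearts. Mmp9 was 0.557 in Clock SC replicate 3, against 0.177 for the next highest, and the gap made up 0.863 of the group's range. Without it the rise of Mmp9 on SC was 0.50 ± 0.09 (limma, adjusted p = 0.0342) and that averaged over diets 0.55 ± 0.06 (0.00015). Lox was 0.180 in Clock SC replicate 2, against 0.0901 for the next highest, and the gap made up 0.856 of the range. Without it the Lox difference on SC was 0.19 ± 0.07 (limma, adjusted p = 0.355) and that averaged over diets 0.17 ± 0.04 (0.0487), still past the threshold.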

How the results depend on the processing

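Of 1485 values of the 9 genes under an alternative, 1396 kept their direction and side of the threshold, 42 lost a call, 3 gained one and 44 changed sign, none of them where the value had been called; the largest of the latter was 0.158 in size before the change. The cause was not tested. Without single arrays, the count of the 9 genes called ranged from 1 to 2 for genotype on SC, from 2 to 5 on HFD, from 0 to 1 for diet in WT hearts and from 0 to 1 for diet averaged over genotypes. The count over all genes then ranged from 49 to 144 for genotype on SC, from 241 to 490 on HFD, from 28 to 90 for diet in WT, from 6 to 27 for diet in Clock and from 218 to 329 for averaged diet.

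With a variance trend, 1 of the 9 was called for genotype on SC (59 of all genes, against 109), 0 for diet in WT (40, against 78) and 0 for averaged diet, and 8 of all genes for diet in Clock (against 20). With the compared arrays alone, 1 of the 9 was called on SC (38 of all genes), 0 for diet in WT (15 of all genes) and 7 of all genes for diet in Clock. Without WT SC replicates 2 and 4, 1 of the 9 was called on SC (49 of all genes), 0 for diet in WT (11) and 0 for averaged diet (141, against 341), and 507 of all genes for averaged genotype (against 861). For diet in Clock, 53 of all genes were called with array weights, 36 with quantile normalization and 37 with probe sets of several symbols.

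Same-numbered arrays shared little of their deviations: over 24 such pairs in different groups, r ran from -0.149 to 0.163, with 3 over 0.1. Differently numbered arrays were not compared with these, so a weak pairing by replicate number was not tested. With the replicate block, 1 of the 9 was called for genotype on SC, since the adjusted p of Mmp2 became 0.0504; over all genes 41 were called for diet in WT and 12 for diet in Clock.

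Sign changes concerned values that had not been called, up to the Timp3 interaction of -0.158. Without WT SC replicates 2 and 4, Timp4 on SC became 0.00087, Lox for diet in WT -0.047, and the interaction of Mmp2 0.0487, of Mmp9 -0.0127 and of Timp3 0.0301. With array weights Lox for diet in WT was -0.00064 and the Mmp9 interaction -0.0093; with quantile normalization they were -0.0028 and -0.054. Without single arrays, genotype on SC ranged from -0.0727 to 0.00594 for Timp1 and from -0.108 to 0.0478 for Timp4. Diet in WT ranged from -0.0605 to 0.0483 for Timp1, from -0.0196 to 0.109 for Timp4 and from -0.0479 to 0.0477 for Lox. Diet in Clock ranged from -0.146 to 0.00147 for Mmp9, from -0.0708 to 0.0363 for Mmp14, from -0.0766 to 0.0223 for Timp2, from -0.0732 to 0.247 for Timp3 and from -0.0353 to 0.0679 for Loxl1. The interaction ranged from -0.144 to 0.00161 for Mmp2, from -0.0751 to 0.118 for Mmp9, from -0.0196 to 0.0801 for Timp2 and from -0.332 to 0.0368 for Timp3.

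Of the calls described above, Mmp9 on SC was lost with a variance trend (adjusted p = 0.0588) as well as with the compared arrays alone (0.126). Mmp2 on SC was lost without WT SC replicates 2 and 4 (0.196), as was Lox averaged over diets (0.0754). Loxl1 on HFD was lost with the compared arrays alone (0.0604). Mmp14 for diet in WT was lost with a variance trend (0.0535), the compared arrays alone (0.0636) and without WT SC replicates 2 and 4 (0.0978), and for averaged diet with a variance trend (0.0825) and without those replicates (0.0880). Timp3 averaged over diets gained a call with array weights (0.0465).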
